A study of Drosophila melanogaster with 2 samples.

Results

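The authors listed 30000 regions for Groucho on 6 chromosome arms, as peaks and background together, so a listed region need not be a Groucho site. The 476 of these on chromosome 4, the small dot chromosome of Drosophila melanogaster, are described here. They were chosen by position alone: every region of the pooled list that the deposited file places on chromosome 4 of the dm6 build, a sequence of 1.35 Mb. The study is a chromatin immunoprecipitation with sequencing (ChIP-seq) of whole embryos of mixed sex, 0 to 24 h old, from 1 transgenic gro-GFP line. In these flies Groucho carries GFP at its C terminus, and an anti-GFP antibody was used on sonicated chromatin. There was 1 group with 2 biological replicates, numbered 1 and 3, and both carry the same tag. Each replicate gave a list of 30000 regions, the pooled reads of both gave another 30000, and a stricter list selected by the irreproducible discovery rate (IDR, a measure of rank agreement between replicates) holds 4492. Each region has a summit and a signal, the authors' value for its height, whose scale is not stated. No untagged sample was analysed here, no read counts are given, so the depth is unknown, and in whole embryos occupancy in few cells and weak occupancy in many cannot be told apart.

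Groucho is a corepressor of the TLE family. It does not bind DNA itself but is brought to genes by DNA-binding repressors such as the Hairy and Enhancer of split proteins, Engrailed and the Wnt pathway factor Pangolin, and it takes part in patterning, neurogenesis and the segmentation of the embryo. Chromosome 4 is known for chromatin that is rich in HP1a and in methylated lysine 9 of histone H3 while most of its genes are transcribed. It also carries its own chromosome-specific protein, POF, and its transposon remnants lie between and inside genes rather than apart from them.

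The sequences below come from 6 of the 18 chromosome 4 regions that are in the IDR list. The first holds the summit of highest signal on the chromosome, the next pair lies upstream of and at the start of zfh2, and the last 3 each hold the DREF element TATCGATA near a gene for a receptor or a ligand. They are RefSeq Release 6 (dm6), + strand, 100 bp on either side of the summit, cut back where an annotated exon begins. Capitals mark GAGAG (the GAGA factor's motif), TATCGATA and TGTGTG, read on either strand, so that CTCTC and CACACA are marked too.
lgs side, chr4:424709-424909: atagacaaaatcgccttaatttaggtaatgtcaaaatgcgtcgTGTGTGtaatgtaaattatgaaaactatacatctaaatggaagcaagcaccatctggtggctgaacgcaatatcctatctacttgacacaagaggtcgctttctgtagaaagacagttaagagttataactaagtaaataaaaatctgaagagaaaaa
zfh2 upstream, chr4:497787-497987: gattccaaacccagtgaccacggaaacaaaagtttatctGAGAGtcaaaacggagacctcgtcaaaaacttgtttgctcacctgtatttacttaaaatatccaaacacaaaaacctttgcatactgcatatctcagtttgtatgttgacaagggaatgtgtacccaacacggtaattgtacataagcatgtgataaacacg
zfh2 promoter, chr4:501594-501794: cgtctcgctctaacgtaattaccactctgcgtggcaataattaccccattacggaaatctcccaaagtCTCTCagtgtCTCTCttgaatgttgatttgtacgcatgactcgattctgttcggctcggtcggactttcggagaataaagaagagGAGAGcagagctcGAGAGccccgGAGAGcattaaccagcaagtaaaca
PlexA promoter, chr4:1027102-1027290: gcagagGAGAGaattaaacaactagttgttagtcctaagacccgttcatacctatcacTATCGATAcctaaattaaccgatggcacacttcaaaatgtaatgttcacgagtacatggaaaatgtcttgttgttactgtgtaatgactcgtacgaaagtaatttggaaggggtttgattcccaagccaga
ey and myo, chr4:696784-696984: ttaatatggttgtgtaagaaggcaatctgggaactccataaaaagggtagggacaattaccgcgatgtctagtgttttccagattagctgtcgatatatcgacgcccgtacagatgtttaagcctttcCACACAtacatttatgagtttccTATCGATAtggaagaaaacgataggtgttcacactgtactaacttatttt
Actbeta promoter, chr4:1084797-1084976: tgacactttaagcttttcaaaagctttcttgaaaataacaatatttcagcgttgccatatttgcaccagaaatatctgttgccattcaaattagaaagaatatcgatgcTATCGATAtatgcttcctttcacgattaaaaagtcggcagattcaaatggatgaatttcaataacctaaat
The zfh2 promoter holds 5 GAGAG matches and the zfh2 upstream window 1, while TATCGATA begins 30 bp before the summit at PlexA, 51 bp after it between ey and myo, and 30 bp after it at Actbeta.

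Chromosome 4 had more regions for its length than any other arm. It held 476 regions, 353 per Mb, against 223 per Mb on the other 5 arms together, where the arms ranged between 212 per Mb on 3R and 236 per Mb on 3L. That is 1.59% of all regions (95% Wilson interval 1.45 to 1.73%) on 1.01% of the length, or 5.95 regions per protein-coding gene, against 2.13 on the other arms. In the replicates' own lists chromosome 4 had 340 per Mb in replicate 1 and 347 per Mb in replicate 3 (344 ± 4.72, SD, n = 2), against 223 per Mb on the other arms in both (223 ± 0.048). Every list holds 30000 regions, so the other arms hold what chromosome 4 leaves, and their small SD does not measure replicate spread. The difference was larger than the spread between the replicates on chromosome 4. With 1 group and 2 replicates no test was run, and the Wilson intervals cover counting error only. Stretches as long as chromosome 4 at the centromere end of the other 5 arms, which are also heterochromatic, had 11.9 regions per Mb (80 regions). They are poorer in genes, with 81 protein-coding genes in 6.74 Mb, against 80 in 1.35 Mb on chromosome 4. Per protein-coding gene they had 0.988 regions, against 5.95 on chromosome 4.

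The regions of chromosome 4 were weaker than those elsewhere, and few reached the IDR list. Their median signal was 30.5, with quartiles of 25.7 and 40.3, the 90th percentile at 57.0 and the highest at 213. On the other arms the median was 37.2, the quartiles 27.4 and 59.5, the 90th percentile 101 and the highest 1892. The chromosome 4 median stood at the 35.0th percentile of the pooled list, at the 34.7th in replicate 1 and at the 35.9th in replicate 3. By signal rank on chromosome 4, the deposited −log10 q was 1.31 at rank 72, 0.586 at rank 238 and 0.360 at rank 476. Most of the 476 are thus regions of low confidence in a list that includes background. Only 18 of the 476 were in the IDR list, 3.78% (2.41 to 5.90%), against 15.2% on the other arms and 15.0% over all 30000. The IDR list equals the 4492 pooled regions of highest signal, so this share restates the signal at a high threshold and is no separate measurement. Taking the same number of top regions from each replicate's list gave 18 on chromosome 4 in replicate 1 (3.92%) and 19 in replicate 3 (4.06%), against 15.1% on the other arms in both.

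**Figure D1:**
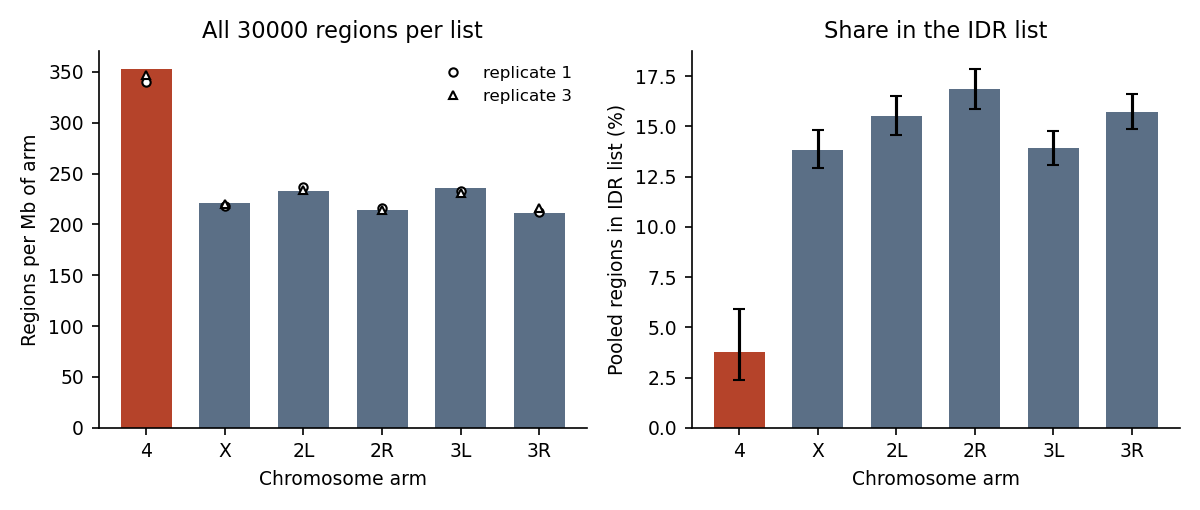
Left, regions per Mb of each chromosome arm in the pooled list (bars) and in the lists of replicate 1 (circles) and replicate 3 (triangles). Right, percent of each arm's pooled regions that are in the IDR list, with 95% Wilson intervals. Chromosome 4 stands highest on the left, at 353 per Mb, and lowest on the right, at 3.78%.

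The excess of regions therefore sat at low signal. Chromosome 4 held 0.401% of the IDR list, 0.925% of the regions below that list with signals of 46.2 to 80.6, 1.80% of those with 33.4 to 46.1, 2.35% of those with 26.3 to 33.4 and 2.10% of those with 21.4 to 26.3, beside its 1.01% share of the length. Each of the 4 steps below the IDR list has 6377 regions. Among IDR regions alone the density was 13.4 per Mb on chromosome 4, against 33.8 per Mb on the other arms.

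The 18 IDR regions of chromosome 4 were found in both replicate lists, as were 99.6% of those on the other arms (4455 of 4474). The IDR list was selected from these same replicates, so this is no separate test. On chromosome 4, 12 of the 18 were among the top 4492 of both replicates, a share that was not computed for the other arms. The chromosome's highest signal, 213, did not lie at a coding gene's start. Its summit, at position 424809, was in intergenic sequence 19102 bp downstream of the start of lgs (legless, a co-activator of the Wnt pathway) and 1258 bp from the start of the noncoding gene lncRNA:CR43437. Its signal was 114 in replicate 1 and 100 in replicate 3. The second, 182, was in the 3′ UTR of Cals (a calsyntenin), close to where sv, the fly's Pax2 relative, ends on the opposite strand, with 50.4 in replicate 1 and 130 in replicate 3. These and the region at gw are the only 3 on the chromosome narrower than the usual 410 bp, at 165, 158 and 153 bp, and they rank 1, 2 and 4 in signal. On the other arms 740 regions, 2.51%, were narrower and 98.1% of those were in the IDR list.

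Several of the 18 had a start of a transcription factor gene, or of the Ski and Sno family gene fuss, as the nearest coding start. The zfh2 gene, for a zinc finger homeodomain protein, had a region 3923 bp upstream of its start with 160 in the pooled list, 53.3 in replicate 1 and 109 in replicate 3. Its promoter region, 116 bp upstream of the start, had 117, with 48.8 in replicate 1 and 63.7 in replicate 3. Both were higher in replicate 3, the distant one by more. The Pax6 gene ey (eyeless) had a pair of regions ahead of its start. The region 57 bp upstream had 97.5, with 70.9 in replicate 1 and 28.1 in replicate 3. The region 805 bp upstream had 102, with 50.4 and 52.1 in replicates 1 and 3, and it lies between ey and the divergent myo (myoglianin, a TGF-beta family ligand). Replicate 1 was the higher at the first, while at the second the replicates were close. Sox102F, a Sox family gene, had 104 at 287 bp upstream of a start, with 58.4 in replicate 1 and 54.7 in replicate 3. For ci (cubitus interruptus, the transcription factor of Hedgehog signalling) the IDR region was 2008 bp upstream, within the antisense gene asRNA:CR43957, with 87.2 in the pooled list, 58.5 in replicate 1 and 30.4 in replicate 3. The region nearest to fuss was the weakest of the 18, 85.4 at 4464 bp upstream, with 29.3 in replicate 1 and 58.9 in replicate 3.

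Signalling and kinase genes came next. PlexA, the receptor of the semaphorin Sema1a in axon guidance, had 120 at 89 bp upstream of its start, with 38.1 in replicate 1 and 85.3 in replicate 3. Actbeta, an activin ligand, had 94.7 at 80 bp upstream, with 42.9 in replicate 1 and 61.0 in replicate 3. CaMKI, a calmodulin-dependent kinase, had 106 at 59 bp downstream, with 53.3 and 52.1. Of these, replicates differed most at PlexA and least at CaMKI. Asator, a relative of tau tubulin kinases, had 153 in an intron 717 bp from its nearest start, with 101 in replicate 1 and 57.3 in replicate 3. A further Asator region ahead of the gene, 543 bp upstream, had 106, with 56.0 and 48.7.

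The remaining regions lay at genes of other roles. RpS3A, a protein of the small ribosomal subunit, had 178 at 3 bp from its start, with 103 in replicate 1 and 73.6 in replicate 3. For gw (gawky, the GW182 protein of microRNA silencing) it was 167 at 141 bp upstream of the nearest start, with 71.5 in replicate 1 and 95.4 in replicate 3. ATPsynbeta, a subunit of the mitochondrial ATP synthase, had 90.3 at 27 bp downstream, with 54.0 and 36.8, in a region that also lies within 1 kb of the start of CG11076. The last region, 99.9 with 35.8 in replicate 1 and 54.2 in replicate 3, lay 115 bp from the start of CG32017 and within 1 kb of that of Kif3C, a kinesin gene. In all, replicate 3 gave the higher signal at 9 of the 18 (50%, 29.0 to 71.0%), against 63.9% of the IDR regions on the other arms. The interval includes the value of the other arms.

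**Figure D2:**
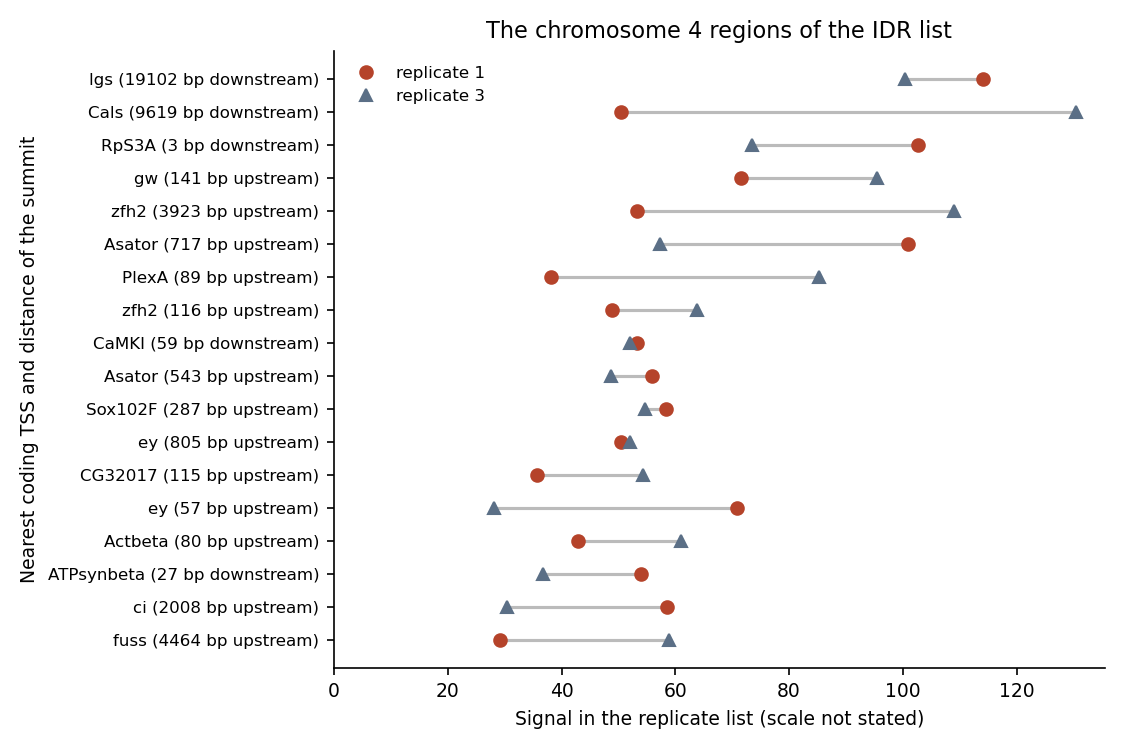
Signal of the 18 chromosome 4 regions of the IDR list in replicate 1 (circles) and replicate 3 (triangles), in order of pooled signal from top to bottom. Rows are named by the nearest coding transcription start and the distance of the summit. The replicates lie close at CaMKI and at the distal ey region and far apart at Cals, with 50.4 and 130.

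Just outside the list, the region at the start of Arl4 (an Arf-like GTPase) had 79.2 and the Asator region next to it in rank 79.0, while the weakest IDR region of any arm had 80.6. The other 8 of the 10 strongest chromosome 4 regions outside the list were at toy (a Pax6 gene, 78.6), Hcf (78.0), ATPsynbeta (75.4), ci (74.4), CG11155 (72.8), PlexB (a plexin, 72.3), pan (71.7) and Mpv17 (70.9). In this set, 9 of the 10 summits were within 500 bp of a transcription start. The exception, at ATPsynbeta, was in coding sequence. The gene pan encodes Pangolin, the TCF protein that recruits Groucho, and its region 153 bp upstream of a start had 47.7 in replicate 1 and 27.4 in replicate 3. At ci the promoter region, 60 bp upstream, had 35.5 and 39.1, so both of its replicates were closer together than at the distal ci region.

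Most of the difference between chromosome 4 and the other arms lay away from promoters. Regions within 500 bp of a transcription start (TSS) numbered 112 on chromosome 4, 23.5% (19.9 to 27.5%), against 34.6% on the other arms, or 22.4% against 35.2% in replicate 1 and 25.2% against 34.4% in replicate 3. Per Mb of the whole arm this was 83.1 promoter regions on chromosome 4, against 77.2 on the other arms, while regions farther from a TSS reached 270 per Mb on chromosome 4, against 146 per Mb on the other arms. The median distance to a TSS was 2111 bp on chromosome 4 and 1127 bp on the other arms. Within either set chromosome 4 was weaker. Its promoter regions had a median signal of 40.5, against 50.0 on the other arms, and 8.93% of them (10 of 112, 4.92 to 15.7%) were in the IDR list, against 27.4% on the other arms. Off promoters the medians were 29.0 on chromosome 4 and 33.2 on the other arms, with 2.20% (8 of 364, 1.12 to 4.28%) in the IDR list, against 8.65% on the other arms.

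**Figure D3:**
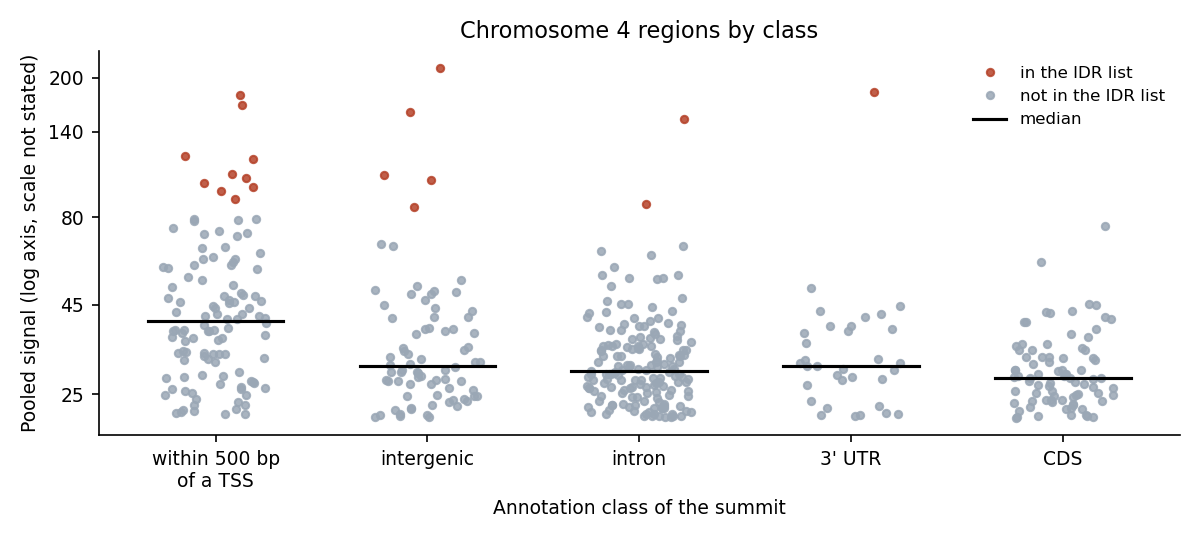
Pooled signal, on a log axis, of each chromosome 4 region in the 5 annotation classes with most regions. Red points are in the IDR list and bars are medians. Promoter regions have the highest median, 40.5. None of the 82 regions in coding sequence is in the IDR list, and few are on the other arms (0.887%).

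In the pooled list, the ratio of the density on chromosome 4 to that on the other arms was highest in coding sequence, then in intergenic sequence and 3′ UTRs. Each summit was given 1 class and each class was scaled by the bases it covers on the arm. In coding sequence (CDS) there were 324 regions per Mb on chromosome 4, against 62.2 per Mb on the other arms, a ratio of 5.21, with 5.89 in replicate 1 and 3.10 in replicate 3 (4.50 ± 1.97, SD, n = 2). In intergenic sequence there were 310 per Mb on chromosome 4, against 99.9 per Mb on the other arms, a ratio of 3.10 (2.73 ± 0.358 over the replicates). In 3′ UTRs there were 341 per Mb on chromosome 4, against 206 per Mb on the other arms, a ratio of 1.66 (1.80 ± 0.406). The part of the genome within 500 bp of a TSS had 773 per Mb on chromosome 4, against 568 per Mb on the other arms, a ratio of 1.36 (1.34 ± 0.148), and introns had 285 per Mb on chromosome 4, against 244 per Mb on the other arms, a ratio of 1.17 (1.16 ± 0.0612). Both replicates gave a ratio above 1 in these 5 classes. In 5′ UTRs, with 4 regions on chromosome 4, and in other exons, with 5, the numbers were too small to compare.

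**Figure D4:**
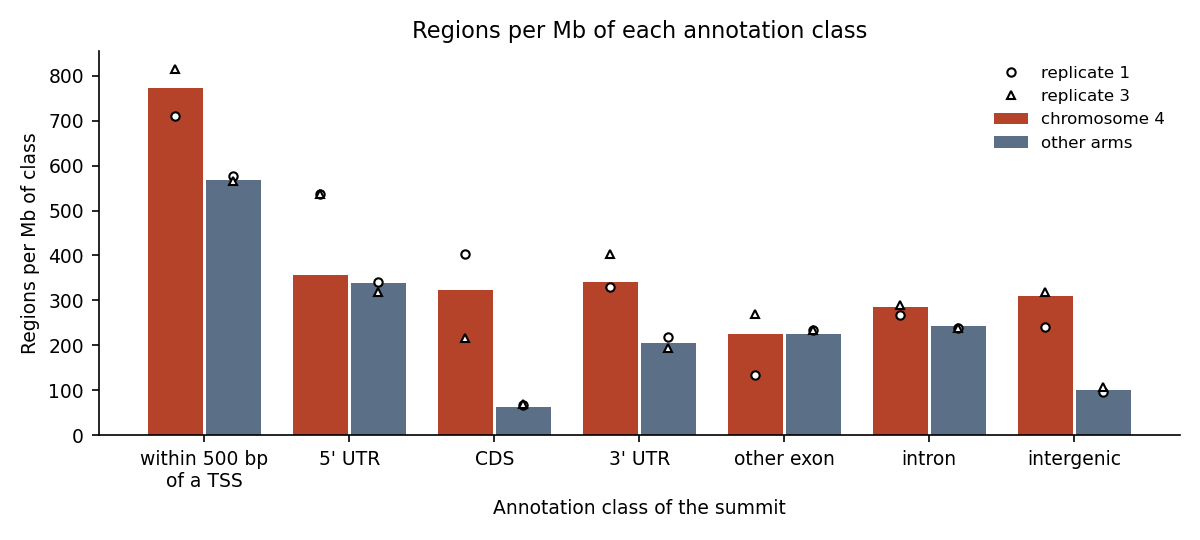
Regions per Mb of each annotation class on chromosome 4 (red) and on the other arms together (grey-blue). Bars are the pooled list, circles replicate 1 and triangles replicate 3. The widest relative gap is in coding sequence, 324 per Mb on chromosome 4 and 62.2 per Mb on the other arms, where the replicates of chromosome 4 also differ most, at 403 and 217 per Mb.

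Coding sequence outside promoters is 18.8% of the bases of chromosome 4 and held 17.2% of its regions. On the other arms it is 13.7% of the bases and held 3.82% of the regions. The chromosome 4 share was thus near its share of bases, and the high ratio reflects a low share on the other arms. The 82 coding regions of chromosome 4 were weak and spread over many genes. They fell in 45 of the 80 protein-coding genes, with at most 4 in any 1 gene. The genes with 4 were Cals, Dyrk3 (a protein kinase), MED26 (a Mediator subunit), eIF4G1 (a translation initiation factor), gw and pan. Their median signal was 27.8, against 27.8 for coding regions on the other arms, and the highest was 75.4, in ATPsynbeta, with 41.3 in replicate 1 and 29.0 in replicate 3. None of the 82 was in the IDR list (0 to 4.48%), against 0.887% of those on the other arms, a value inside that interval. The replicates differed here: 102 coding summits in the list of replicate 1 (22.2%) and 55 in that of replicate 3 (11.8%), against 4.20% and 4.30% on the other arms. Of the 82 pooled regions 38 overlapped a region of both replicates, 30 one of replicate 1 alone, 13 one of replicate 3 alone and 1 neither. Coding bases on chromosome 4 had a GC content of 41.6%, against 53.6% on the other arms, and its whole sequence 34.8%, against 42.2% on the other arms. The part of base composition in the result was not tested.

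Remnants of mobile elements make up 24.8% of chromosome 4, against 5.22% of the other arms, and regions on chromosome 4 lay in them far more often. There were 72 summits in annotated mobile elements, 15.1% of the regions, against 130 summits or 0.440% on the other arms. Of the 72, 42 (58.3%) were in INE-1, a short element without coding capacity, against 76 of the 130 (58.5%) on the other arms. The density inside mobile elements was 216 per Mb on chromosome 4, against 18.8 per Mb on the other arms, and outside them 398 per Mb on chromosome 4, against 234 per Mb on the other arms. The ratio of chromosome 4 to the other arms was 1.70 outside mobile elements and 1.58 over all regions. The part of mobile elements in the excess was not tested. Regions inside them had a median signal of 28.2 and a highest of 63.9, and 0 of the 18 IDR regions were there. How reads that map to several places were treated is not given in the sources used here.

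Nearly every protein-coding gene of chromosome 4 had a region within 1 kb of a start, though seldom a strong one. Summits on chromosome 4 had a median spacing of 1423 bp, so a summit this near is common there. The shares below were not corrected for the density of regions. Of the 80 coding genes, 76 (95%, 87.8 to 98.0%) had a pooled summit no farther than 1 kb from a TSS, against 57.1% of the coding genes on the other arms and 57.3% of all 13945. An IDR summit lay there in 14 (17.5%, 10.7 to 27.3%), against 26.0% on the other arms and 25.9% of all. The strongest region within 1 kb of a TSS had a median signal of 48.0 over the 76 chromosome 4 genes, against 74.7 on the other arms. Genes on chromosome 4 are long, with a median span of 10.1 kb, against 2.16 kb on the other arms, and 79 of the 80 had a summit in the gene or within 1 kb of it. The exception was fd102C, a forkhead factor gene of 7.54 kb. Of the other 3 genes with no region at a start, CG32006 and CG31997 had 2 summits each in the gene or within 1 kb.

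By role, a panel of 37 genes of chromosome 4 gave 36 with a pooled summit within 1 kb of a TSS and 11 with an IDR summit there. The shares are 95% and 17.5% for the 80 coding genes of this chromosome, and 57.3% and 25.9% for all coding genes. The pooled count is thus near the share of the whole chromosome. The panel, chosen with earlier results known, holds 11 of the chromosome's 14 coding genes with an IDR summit there. Of the 12 transcription factors and nuclear partners, 11 had a pooled summit, with a median of 71.7 for the strongest, and ey, zfh2 and Sox102F had an IDR summit. Within this group lgs reached 33.0, onecut 36.3, dati 29.0 and sv 28.0 at a start, and Mitf 60.7. So the Pax2 relative sv, whose 3′ end is beside the second strongest region of the chromosome, had a weak region at its own start. All 8 signalling and guidance genes had a pooled summit (median 60.0), and PlexA, Actbeta and myo an IDR summit, while the ephrin gene Ephrin reached 47.8 and its receptor Eph 41.7. All 9 neural and muscle genes had one (median 45.2), with IDR summits at Asator and Kif3C. The synaptic genes Syt7 and unc-13 reached 23.7 and 35.5, and bt (projectin, a giant muscle protein) 41.2. All 8 housekeeping and RNA genes had one (median 59.6), with IDR summits at RpS3A, ATPsynbeta and gw, and the lowest was 25.9 at JYalpha, a Na,K-ATPase subunit gene. The Polycomb group gene pho, which is also on this chromosome, had 32.5.

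Some genes held many weak regions, in counts that are not scaled by gene length. The most were in pan, with 26 summits in the gene or within 1 kb of its 44.9 kb, and none of them in the IDR list. Next were zfh2 with 22 (39.1 kb), Asator with 16 (19.6 kb), the calcium pump gene PMCA with 15 (30.7 kb) and the DNA glycosylase gene Tdg with 14 (19.5 kb). Then came the kinase gene CaMKII with 12 (18.4 kb), Cals with 12 (10.5 kb) and Cadps, a factor of vesicle release, with 11 (40.9 kb). Of these 8, zfh2 held 1 IDR region, Asator 2 and Cals 1. The genes zfh2 and Tdg overlap, so some summits count for both.

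Fewer of the chromosome 4 regions were found again in both replicates, whose reads also made the pooled list, so overlap is not an independent test. A region of each replicate's list overlapped 281 of the 476, 59.0% (54.6 to 63.4%), against 71.0% on the other arms. The part that was found in replicate 1 was 77.5% on chromosome 4 and 84.5% on the other arms, and in replicate 3 it was 79.0% on chromosome 4 and 84.2% on the other arms. Among regions below the IDR list, where the signals are closer, both replicates held 57.4% on chromosome 4, against 65.9% on the other arms. Chromosome 4 regions were the weaker there too, so these shares are not matched for signal. Only 12 regions of chromosome 4 (2.52%) were in neither list, against 2.35% on the other arms.

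Regions were spread along the whole of the gene-bearing chromosome. In 13 full bins of 100 kb there were 20 to 53 regions, with a median of 38, against 0 to 102 with a median of 20 in the 1323 bins of the other arms, of which 193 had none. Bin 5 held the most, 53 regions and 5 of the 18 IDR regions, namely the distal zfh2 region, both Asator regions, CaMKI and the lgs side. Bins 8, 9 and 13 were the lowest, with 21, 20 and 21 regions, and have 3 or 4 coding genes each. Of bin 13, 17% is unsequenced. Region number did not simply follow gene number: bin 5 has 5 coding genes, while bin 7, with 11, held 39 regions. The widest stretch between neighbouring summits was 38.6 kb across JYalpha and PlexB, the next 33.9 kb inside the large gene bt, and the third 19.6 kb inside Mitf, of which 86.6% is unsequenced. After the last summit, at position 1252488, the final 95.6 kb of the sequence had none.

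**Figure D5:**
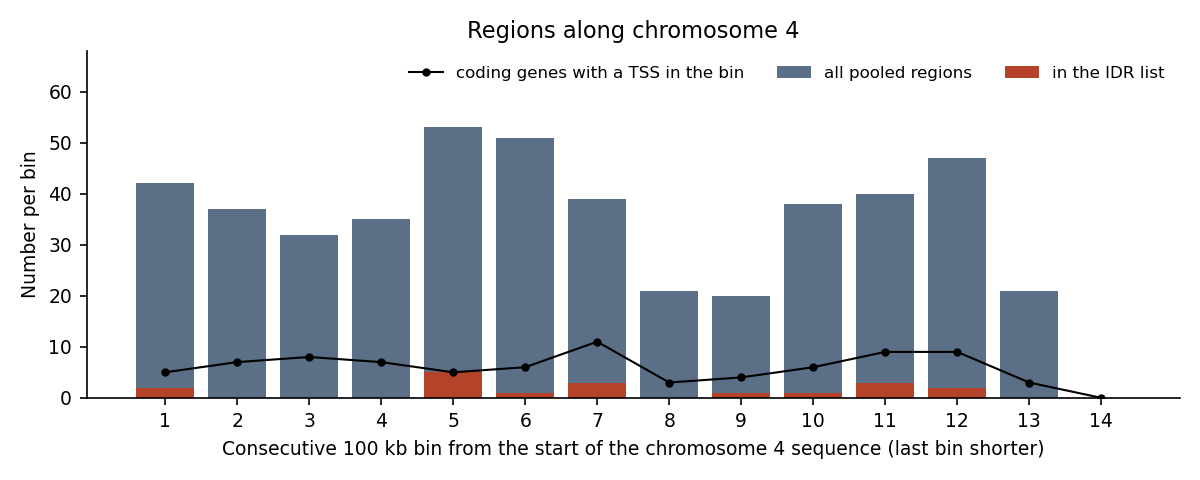
Pooled regions (grey-blue) and IDR regions (red) in consecutive 100 kb bins of chromosome 4, counted from the start of the sequence, with the number of coding genes that have a start in the bin (black line). All full bins hold 20 or more regions, bin 5 holds the most (53), and the last, shorter bin holds none.

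Short motifs were counted on both strands in 201 bp windows centred on the summits, and in all windows of that length along the arms. TATCGATA, the DREF element printed above at PlexA, between ey and myo and at Actbeta, was in 16 chromosome 4 windows, 3.36% (2.08 to 5.39%), against 2.41% on the other arms. Off promoters it was in 3.02% (11 of 364) on chromosome 4, against 0.420% on the other arms, and at promoters in 4.46% on chromosome 4, against 6.17% on the other arms. The element is more common along chromosome 4 as a whole, in 1.98% of all windows, against 0.550% on the other arms. Of the 18 IDR windows 3 held it (16.7%, 5.84 to 39.2%), against 6.33% on the other arms.

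GAGAG was in 22.1% of chromosome 4 summit windows (18.6 to 26.0%), against 25.4% on the other arms. It was in 17.4% of all windows along chromosome 4, against 21.6% along the other arms. TGTGTG was in 11.1% of chromosome 4 summit windows, against 19.7% on the other arms, and in 9.62% of all chromosome 4 windows, against 15.4% on the other arms. The E-box CACGTG was in 1.26% of chromosome 4 summit windows, against 2.73% on the other arms, and in 1.33% of all chromosome 4 windows, against 2.37% on the other arms. All 3 shares were lower on chromosome 4, at summits and along the whole arm alike. At summits, however, the GAGAG interval includes the value of the other arms, and the CACGTG interval (0.579 to 2.72%) ends just below it. CAGGTAG, bound by the early embryonic activator Zelda, was in 1.47% of chromosome 4 summit windows (0.714 to 3.00%), against 0.962% on the other arms, an interval that includes the value of the other arms. GGTCACACT, the motif of M1BP at many constitutive promoters, was in 2 of the 476 windows (0.420%, 0.115 to 1.52%), against 1.41% on the other arms. This interval too includes the value of the other arms. Along the arms GGTCACACT was in 0.0755% of all chromosome 4 windows, against 0.203% on the other arms. AACCGGTT, bound by Grainyhead, was in 0 of 476 windows on chromosome 4 (Wilson upper bound 0.801%), against 0.450% on the other arms.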

How the data were processed

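ChIP-seq regions were deposited as lists without headers. Per the deposited manifests, the authors called 30000 regions from each of the 2 replicates, and 30000 from both pooled, with a control alignment, and selected 1 IDR list, in dm6 and dm3. The pooled list is labelled as peaks and background, the input for IDR. Neither labels nor manifests name the aligner, the caller or the IDR threshold. The signal of each region is the authors' deposited value, on no stated scale. The deposited −log10 q reaches 1 shared maximum at 10 of the 476 chromosome 4 regions, so regions were ranked by signal.

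The members and gene lists were chosen with earlier results of these data known. Named genes are those of all IDR regions, of the 10 strongest other regions, the 8 with most summits, a panel of 37 by role, and those with no region. Summits were set against Ensembl release 115 genes and RefSeq Release 6 mobile elements and sequence, in Python 3.11.15 with numpy 2.4.6, scipy 1.17.1 and matplotlib 3.10.9. A summit took the first class that applied of promoter (within 500 bp of a TSS), untranslated or coding exon in transcript order, remaining exon, intron and sequence between genes. A region was found again where it overlapped a replicate's region by 1 bp or more. The class assignment was tested on simulated summits. Chromosome 4 was compared with the other 5 arms, with Wilson 95% intervals. Lists of each replicate alone, other distances, stricter lists and the dm3 lists were tried as alternatives. A further gene with no region at its start is not reported here.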

Additional observations from a re-analysis of the deposited data

How the results depend on the processing

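Each result was recomputed as the ratio of chromosome 4 to the other arms, under 29 alternatives over 6 results, of which 27 stayed on the same side of 1. A narrower range was the pooled ratio ± the SD of the replicates, or the Wilson interval for recovery. By that range 9 were the same, 18 moved beyond it and 2 reversed. Those that reversed were both in the list cut to the strongest 4492 regions: the density ratio was 0.396 there, against 1.58 with all regions, and the ratio of coding genes with a region 0.674, against 1.66. Taking 1 replicate's list in place of the pooled one gave 1.53 to 1.56 for the density, 0.829 to 0.841 for the median signal (0.822 pooled), 0.259 to 0.268 for the IDR share (0.250), 0.638 to 0.732 for the promoter share (0.679) and 1.53 to 1.59 for genes. The density ratio was 2.79 per protein-coding gene and 1.63 in the dm3 lists, where the span covered by regions stood for length, and outside mobile elements, an alternative chosen after seeing the data, it was 1.70. Against stretches next to the centromere of the other arms, the ratios were 0.905 for the median signal and 0.605 for the IDR share, with 5 IDR regions in those stretches. The IDR share ratio was 0.222 in the upper part of the IDR list and 0.243 in dm3. The promoter share ratio was 0.886 in the strongest 4492, 0.757 within 1000 bp, and 0.789 without regions in coding sequence, also chosen after seeing the data. For genes with 1000 bp on each side it was 1.56. Recovery in both replicates was 45.8% on chromosome 4 against 58.2% when 50% of both regions had to overlap, and 46.4% against 59.5% when the summit had to lie inside. The causes of these shifts were not tested.

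No paired analysis was possible because there was 1 group. The files give no depth, so what more reads would add is unknown, and the control was not analysed here.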
